A study of Homo sapiens with 9 samples.

Results

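The CCDC152 row is 1 of the 26008 gene rows in a table of RNA-seq counts from the established human cell line HCT8, derived from a colorectal adenocarcinoma of the ileocecal region. It was chosen by name, with the row of its opposite-strand neighbour SELENOP, which the table lists as SEPP1, because its counts were low after treatment with E. coli vesicles in these same libraries. That contrast is therefore described here without a test, as is the difference between the vesicle groups, which rests on the same E. coli libraries. The cells were seeded 16 h before treatment and incubated for 5 h with membrane vesicles of V. cholerae C6706, with membrane vesicles of E. coli MC1061, or as a control. The labels call the control untreated, while their protocol names 20 mM Tris-HCl for it. Membrane vesicles bud off the envelope of growing bacteria, and strain MC1061 is a laboratory E. coli. Each group had 3 libraries of poly-A selected RNA. Whether replicates were grown as separate cultures is not said in the labels, so the p-values cover only the variation among these samples, and it may be technical. All the cells were of this 1 line, and a change in RNA per cell cannot be told apart from a change in the share of cells that make it.

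SELENOP encodes selenoprotein P, a secreted protein that carries selenium through the plasma as selenocysteine residues and is taken up by target cells through the lipoprotein receptors LRP8 and LRP2. Most plasma selenoprotein P comes from the liver, and intestinal epithelial cells and colon carcinoma lines also make it. Selenocysteine is inserted at UGA codons, which elsewhere end translation, and this needs SECIS hairpins in the 3′ untranslated region of the messenger. CCDC152 encodes a coiled-coil protein of unknown role. RNA from its locus, called L-IST, has been described as binding SELENOP messenger RNA and lowering its translation.

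The transcripts of CCDC152 and SELENOP run in opposite directions on chromosome 5 and overlap at their 3′ ends. In the GENCODE 29 annotation, used here for structure only because the table was counted on build hg19, the longest coding CCDC152 transcript has 9 exons and 3431 nt. The longest coding SELENOP transcript has 5 exons and 2243 nt. The last exon of CCDC152, of 2702 nt, covers the whole last exon of SELENOP, of 1452 nt. This overlap makes up 64.7% of the SELENOP transcript and 42.3% of the CCDC152 transcript. It holds 609 coding nt and 843 non-coding nt of SELENOP, and 0 coding nt of CCDC152. Of the 10 selenocysteine codons of SELENOP, 9 lie in it.

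**Figure D1:**
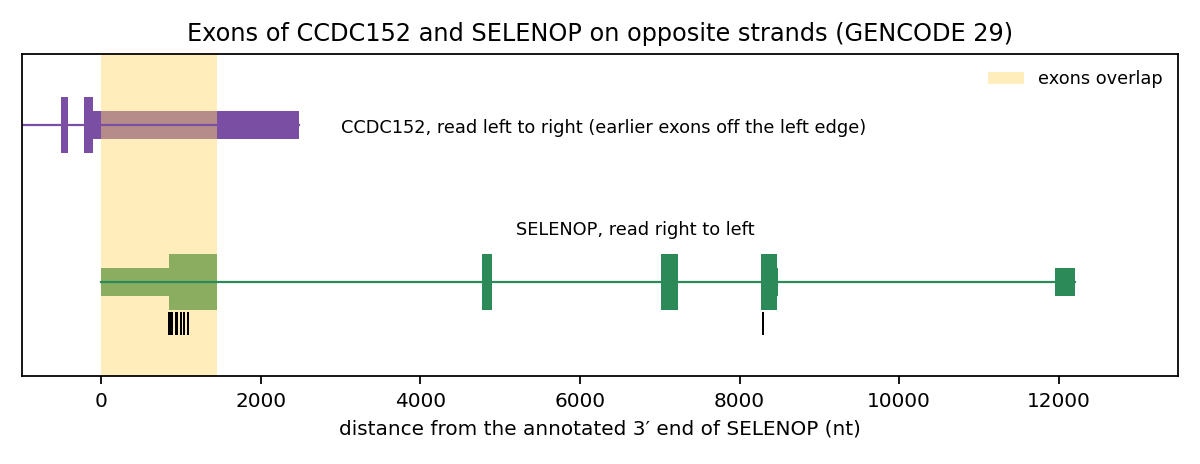
Exons of the longest coding CCDC152 and SELENOP transcripts, against distance in nt from the annotated 3′ end of SELENOP; tall boxes are coding, low boxes non-coding, and black ticks under SELENOP mark its 10 selenocysteine codons. The shaded stretch of 1452 nt, where the exons of both genes overlap, holds 9 of the 10 codons.

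The sequences around selenocysteine codons of SELENOP show what part of the messenger lies opposite the CCDC152 row. They are written as DNA, 5′ to 3′ in the direction of SELENOP, from the GENCODE 29 transcript, with the selenocysteine codon in capitals and 12 nt on each side. The first codon, at residue 59, lies outside the overlap. The reverse complements of the other 3 shown here, at residues 300, 352 and 378, were found in the CCDC152 transcript.
Sec1: cttcaagccagcTGAtacctgtgcata
Sec2: gctcctaggagcTGAtgctgccattgt
Sec6: cctccagctgccTGAcaaataagtcag
Sec10: aaaaagtgagaaTGAccttcaaactaa

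Each transcript has a promoter of its own, and the counts of the row do not show from which of them the RNA came. Both are given here from RefSeq, each 250 bases before to 50 after the annotated start and in the gene's own direction, on build GRCh38.p14. The CCDC152 promoter lies on the plus strand at chr5:42756568-42756867, and the SELENOP promoter on the minus strand at chr5:42811843-42812142. Capitals mark matches to 4 motifs searched on both strands, chosen after the sequences were seen. They are the forkhead motif GTAAACA, the HNF4 motif CAAAGTTCA, the AP-1 motif TGANTCA and the antioxidant response motif TGACNNNGC.
CCDC152: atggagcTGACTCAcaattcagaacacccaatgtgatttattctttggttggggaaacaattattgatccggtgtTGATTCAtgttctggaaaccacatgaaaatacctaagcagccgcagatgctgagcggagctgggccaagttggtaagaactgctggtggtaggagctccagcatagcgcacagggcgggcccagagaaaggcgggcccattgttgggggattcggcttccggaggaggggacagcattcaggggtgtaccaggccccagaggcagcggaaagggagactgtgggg
SELENOP: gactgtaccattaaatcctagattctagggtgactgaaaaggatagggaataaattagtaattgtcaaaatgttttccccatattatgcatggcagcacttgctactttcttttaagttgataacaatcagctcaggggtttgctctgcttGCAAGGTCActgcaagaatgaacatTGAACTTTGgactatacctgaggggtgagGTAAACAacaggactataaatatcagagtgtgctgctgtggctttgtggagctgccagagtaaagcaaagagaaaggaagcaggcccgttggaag

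The CCDC152 promoter held the AP-1 motif at 2 positions, which start at -243 and -175 from the annotated start. The SELENOP promoter held the forkhead motif, starting at -45, and on its opposite strand the HNF4 motif, at -74, and the antioxidant motif, at -99. None of these matches overlapped another. Among the 35116 promoters of the RefSeq table, the forkhead motif was in 3.42%, the HNF4 motif in 0.296%, the AP-1 motif in 7.71% and the antioxidant motif in 13.3%. A match describes the letters and does not show that a factor binds.

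Library totals ran from 363557 to 733412 counts. Rows with exons opposite another gene's exons held 86.3% to 87.5% of matched counts in replicates 1 and 2 of all groups and 83.7% to 83.9% in replicate 3. The share of matched rows that are of this kind is not given here, so these percentages are a description. The keratin row KRT18 ran from 56 to 96 counts per library, and KRT8, the row opposite it, from 7550 to 11346. Of the epithelial marker rows read by name, EPCAM had 5 to 17 counts per library, CDH1 0 to 9 and VIL1 0 to 4, while the USP37 row opposite VIL1 had 417 to 800. The summed epithelial rows, nearly all KRT8, held 7640 to 11462 counts per library, fibroblast rows 0 to 1, hepatocyte rows 0 to 1, endothelial rows 2 to 19 and leukocyte rows 19 to 43. Rows of VIM, PTPRC, CD3E, VWF, CDH5, ALB and TTR were at 0 in every library, and the leukocyte counts came from LYZ and CD14. Low counts of a row read by name do not show that its transcript was absent, since the strand on which the rows were counted is not known.

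At the SELENOP locus nearly all counts were in the CCDC152 row. Over the 9 libraries it held 1117 counts and the SEPP1 row 26. Per kb of all annotated exons of each gene this came to 326 counts for CCDC152 and 4.57 for SEPP1. The SEPP1 row had 0, 2 and 4 counts in control replicates 1 to 3, 1, 3 and 10 with V. cholerae vesicles, and 0, 1 and 5 with E. coli vesicles, and it did not pass the filter on low counts. Its highest count in each group was in replicate 3. A count of 3 was worth 3.88 to 9.07 CPM, the library-scaled count defined below, so the SEPP1 values lie near the limit of detection and no fold is given. No source used here states on which strand reads were counted, so those of the CCDC152 row may come from CCDC152 itself or from SELENOP, and the table alone does not settle which.

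With E. coli vesicles the CCDC152 row was lower than in the controls in every same-numbered pair of libraries. Its counts were 226, 194 and 108 in control replicates 1 to 3, 136, 118 and 148 with V. cholerae vesicles, and 79, 52 and 56 with E. coli vesicles. As CPM, the count scaled by the total of the rows tested and a TMM factor, the controls stood at 683, 532 and 215 CPM. The V. cholerae libraries stood at 396, 344 and 191 CPM, and the E. coli libraries at 228, 150.0 and 124 CPM. The controls were high in replicates 1 and 2 only, and replicate 3 was the lowest library of each group. The groups overlapped, because E. coli replicate 1 at 228 CPM (95% Poisson interval 181 to 284) lay above control replicate 3 at 215 CPM (176 to 260). These intervals cover counting error only.

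**Figure D2:**
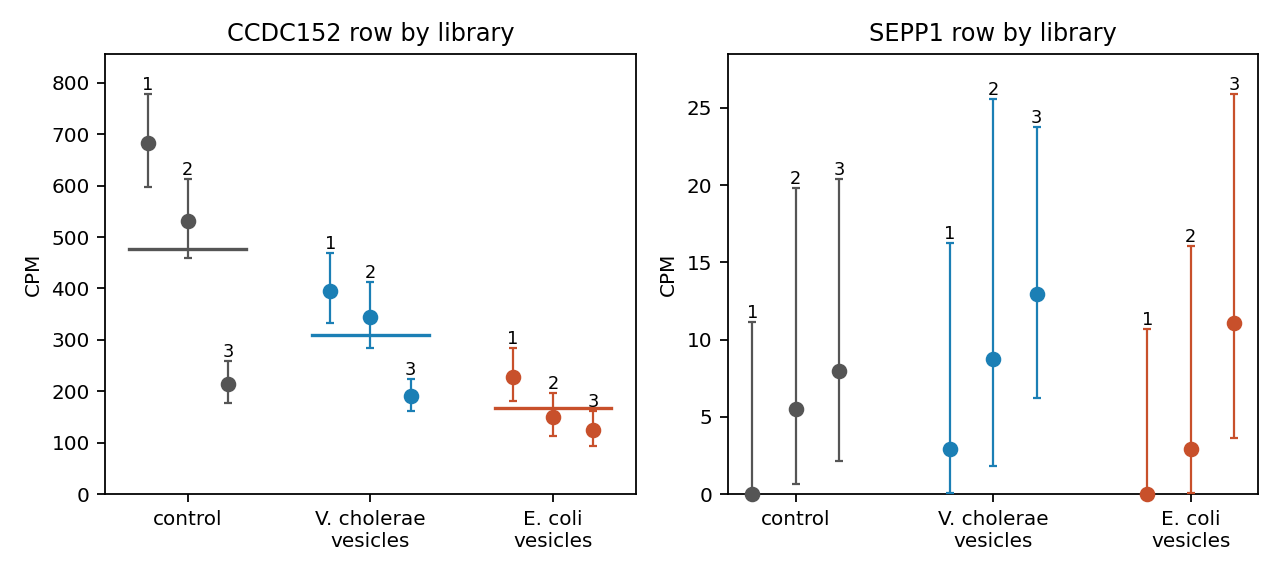
CPM of the CCDC152 row (left) and the SEPP1 row (right) in each of the 9 libraries; points carry the replicate number, bars are 95% Poisson intervals of the count, and horizontal lines on the left are group means. Replicate 3 is the lowest library of each group in the CCDC152 row, and the E. coli libraries sit between 124 and 228 CPM against 215 to 683 CPM in the controls.

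The order of the group means was control, V. cholerae, E. coli. Mean CPM was 477 ± 239 (SD, n = 3) in controls. It was 310.4 ± 106 (SD, n = 3) after V. cholerae vesicles and 167 ± 54.2 (SD, n = 3) after E. coli vesicles. The E. coli libraries had 0.334, 0.282 and 0.578 times the CPM of the control with the same replicate number. All 3 pairs were thus lower, as in 20.0% of the 3679 rows tested, and the difference was smaller in replicate 3. The fit across all rows put the E. coli vesicles 2.84-fold below control, a log2 fold change of -1.51 ± 0.39 (SE), and 19 of the 3679 rows had a lower one. With the replicate number as a block it was -1.42 ± 0.20, with 30 rows lower. As the row was chosen for this contrast, these are descriptions and no test is attached to them. In that contrast 0.19% of rows were called without the block and 2.28% with it. The value was -1.15 without control replicate 1 and -1.86 without control replicate 3.

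With V. cholerae vesicles the CCDC152 row stood between the other groups. The V. cholerae libraries had 0.580, 0.647 and 0.890 times the CPM of the same-numbered controls, so all 3 lay on the low side, as in 17.3% of all rows tested. The log2 fold change of -0.62 ± 0.37 did not pass edgeR's quasi-likelihood test (adjusted p = 0.999), and with the replicate block it was -0.55 ± 0.19 (adjusted p = 0.372). Of all rows, 0.0544% were called in this contrast without the block and 0.353% with it. The controls in this comparison are those of the contrast for which the row was chosen, so its p-values are not independent of that choice. With control replicate 1 left out the value was -0.26, with control replicate 3 left out -0.99, and with V. cholerae replicate 3 left out -0.35. In replicates 1 and 2 alone it was -0.71 ± 0.16, which passed (edgeR adjusted p = 0.0151, the lowest of all alternatives, of which the highest was 1.000). There 61 of 3249 rows were called, and the spread between replicates is narrow and may be technical.

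The direct difference between the vesicle groups had the V. cholerae libraries on the high side. The V. cholerae libraries had 1.73, 2.29 and 1.54 times the CPM of the same-numbered E. coli libraries, with overlap because V. cholerae replicate 3 at 191 CPM lay below E. coli replicate 1 at 228 CPM. The log2 difference was 0.88 ± 0.39, and with the block 0.87 ± 0.20. Of all rows, 0.0% were called by edgeR without the block, where 333 rows had an unadjusted p under 0.05, and 0.0544% with it, while DESeq2 called 5 rows and limma voom 0. These E. coli libraries are those for which the row was chosen, so the values are a description. In replicates 1 and 2 alone the difference was 0.96 ± 0.19. Neighbours in the order control, V. cholerae, E. coli overlapped library by library, while each same-numbered pair kept that order. The share of all rows that keep this order is not given here, and the row was chosen for low values with E. coli vesicles.

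Across the table, rows opposite a part of a coding gene far from its 3′ end had lower values in E. coli replicates 1 and 2, so the place of the CCDC152 overlap along SELENOP was compared with that of other rows. The overlap lies a mean of 725.5 nt from the 3′ end of SELENOP. The other 216 tested rows at 500 to 1000 nt from the end of an opposite coding gene stood at a median log2 fold change of 0.06 under E. coli vesicles, with 5% of them below -0.52, and 0 of them were lower than CCDC152. Their median log2 ratios to control were 0.06, 0.105 and 0.005 in replicates 1, 2 and 3, where CCDC152 had -1.58, -1.83 and -0.79. Rows at 3000 nt and more had a median of -0.52 in the E. coli contrast, with -0.58, -0.99 and -0.08 in replicates 1, 2 and 3, and 10 of those 216 were lower than CCDC152. With the trend over this distance removed from each library, the log2 fold change of CCDC152 was -1.53 ± 0.30 with E. coli and -0.59 ± 0.29 with V. cholerae vesicles (for the latter, edgeR adjusted p = 0.959). CCDC152 was chosen for a low value in the E. coli contrast, where 19 of all 3679 rows tested were lower. Its place below the rows at 500 to 1000 nt is therefore a description, and whether position accounts for its value was not tested.

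**Figure D3:**
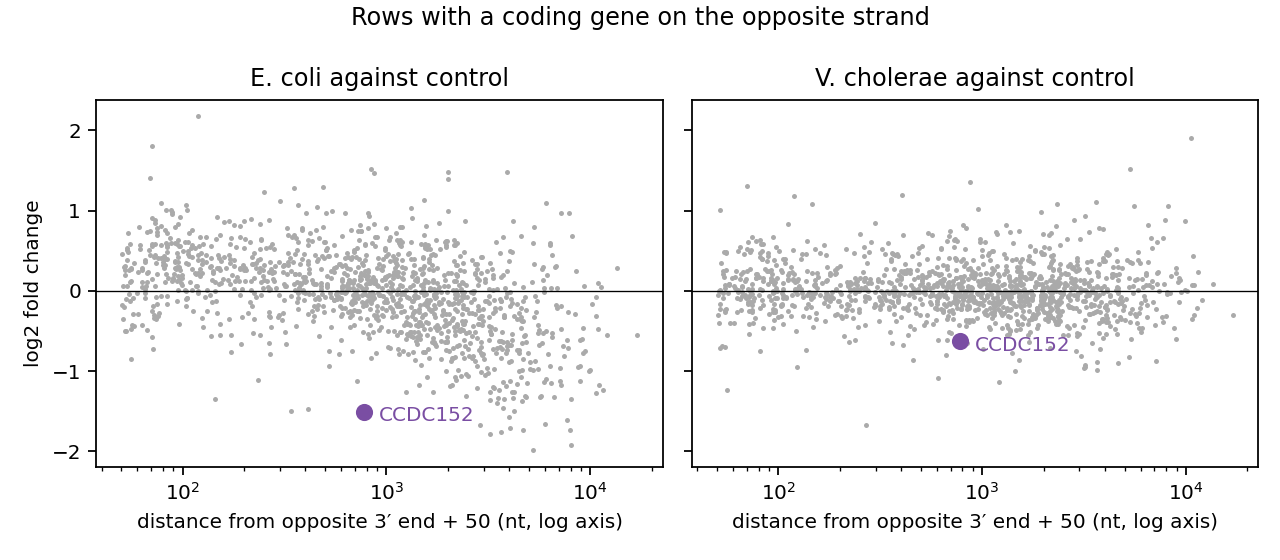
Log2 fold change against distance to the end of an opposite coding gene's messenger (log axis, 50 nt added) for tested rows that have one, with E. coli (left) and V. cholerae vesicles (right) against control. The grey rows fall away beyond 3000 nt on the left (median -0.52), while CCDC152, at 725.5 nt and -1.51, lies below the other rows at 500 to 1000 nt. CCDC152 was chosen for its low value in the contrast on the left.

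The selenium genes read by name had few counts. Of 25 selenoprotein rows, 2 passed the filter on low counts. Of 12 rows for selenium uptake and selenocysteine synthesis 2 passed, and of 6 rows for regulators of SELENOP or metal-responsive transcription 1 did. The glutathione peroxidase rows GPX1 and GPX4 held 5 and 14 counts over all 9 libraries, and the thioredoxin reductase row TXNRD1 held 37. LRP2, SECISBP2, which encodes a SECIS-binding protein, PSTK, SELENBP1 and the coactivator PPARGC1A were at 0. HNF4A had 7 counts and FOXO1, a forkhead factor, 9.

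None of these 5 rows was called in any of the 3 comparisons, without or with the block. edgeR, DESeq2 and limma voom each called 0 of 5, and 0 had an unadjusted p under 0.05. With edgeR and no block, 414 of all 3679 rows had one in the E. coli comparison, 100 in the V. cholerae comparison and 333 between the vesicle groups. The shares of all rows called were those given above, the largest being 2.28% with E. coli vesicles and the block. With E. coli vesicles their median log2 fold change was -0.12, against -0.01 over all rows tested, and with V. cholerae vesicles -0.08, against 0.01. The row of SEPN1, which encodes selenoprotein N of the endoplasmic reticulum, stood at -0.25 ± 0.43 with E. coli vesicles. It had 14, 13 and 22 counts in the controls, 9, 17 and 38 with V. cholerae and 5, 12 and 23 with E. coli vesicles. The row of SELO, for the mitochondrial selenoprotein O, stood at -0.12 ± 0.48, and that of LRP8, the selenoprotein P receptor, at -0.13 ± 0.34. TRNAU1AP, of the selenocysteine transfer RNA complex, stood at 0.02 ± 0.64 and MTF1, the metal-responsive factor, at 0.30 ± 0.46. Genes with no coding transcript opposite lie across from all of them but MTF1. They are AL020996.1 at SEPN1, AL022328.2 at SELO, SNHG12 at TRNAU1AP, and AL355483.2, AL355483.4 and AL606760.1 at LRP8. As the strand counted is not known, the values of such a row may come from either side. In the controls SELO had 14, 29 and 74 counts and MTF1 18, 15 and 44, so in both rows replicate 3 was high, where CCDC152 was low.

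The 16 other rows of genes within 1 Mb of CCDC152, SEPP1 among them, gave 3 that passed the filter. They are OXCT1-AS1, opposite the ketone body enzyme gene OXCT1, and NNT and NNT-AS1, which lie opposite each other at the gene of the mitochondrial transhydrogenase. OXCT1-AS1 had 85, 91 and 73 counts in controls, 77, 95 and 112 with V. cholerae vesicles and 30, 18 and 63 with E. coli vesicles. E. coli replicates 1 and 2, at 86.7 and 51.9 CPM, were low, and replicate 3 at 139.8 CPM was close to control replicate 3 at 145 CPM. Its log2 fold change was -1.20 ± 0.36 with E. coli vesicles (edgeR adjusted p = 0.214) and -0.02 ± 0.35 with V. cholerae vesicles. NNT-AS1 stood at -1.15 ± 0.47 and NNT at -0.93 ± 0.52 with E. coli vesicles, on 3 to 14 and 3 to 20 counts per library.

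None of these 3 rows was called in any comparison by edgeR, DESeq2 or limma voom, where 2 had an unadjusted p under 0.05 in the E. coli comparison with edgeR and 1 with each of the other tools. Over all 3679 rows, 414 had one with edgeR, 332 with DESeq2 and 390 with limma voom. All 3 lay on the low side with E. coli vesicles, with a median of -1.15 against -0.01 over all rows. Without E. coli replicate 3 OXCT1-AS1 was called at -1.64 ± 0.38 (edgeR adjusted p = 0.0170; the 3 alternatives that called it had 6.90e-07 to 0.0170). In that setting 236 of 3883 rows were called. NNT-AS1 was called in replicates 1 and 2 only, at -1.61 ± 0.56 (edgeR adjusted p = 0.0343), where 793 of 3249 rows were. It was also called with the block and without E. coli replicate 3, at -1.70 ± 0.52 (edgeR adjusted p = 0.0166), where 817 of 3883 rows were. OXCT1-AS1 lies 3273 nt and NNT-AS1 6371 nt from the opposite 3′ end, where CCDC152 lies at 725.5 nt. The tested rows at 3000 nt and more had a median of -0.52 with E. coli vesicles, lower than that of all rows. NNT and NNT-AS1 lie at 1 locus. The other 13 rows of the neighbourhood had too few counts for a test. Among them were the growth hormone receptor GHR with 17 counts in all, the chemokine CCL28 with 7 and the sterol synthesis enzyme HMGCS1 with 3.

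**Figure D4:**
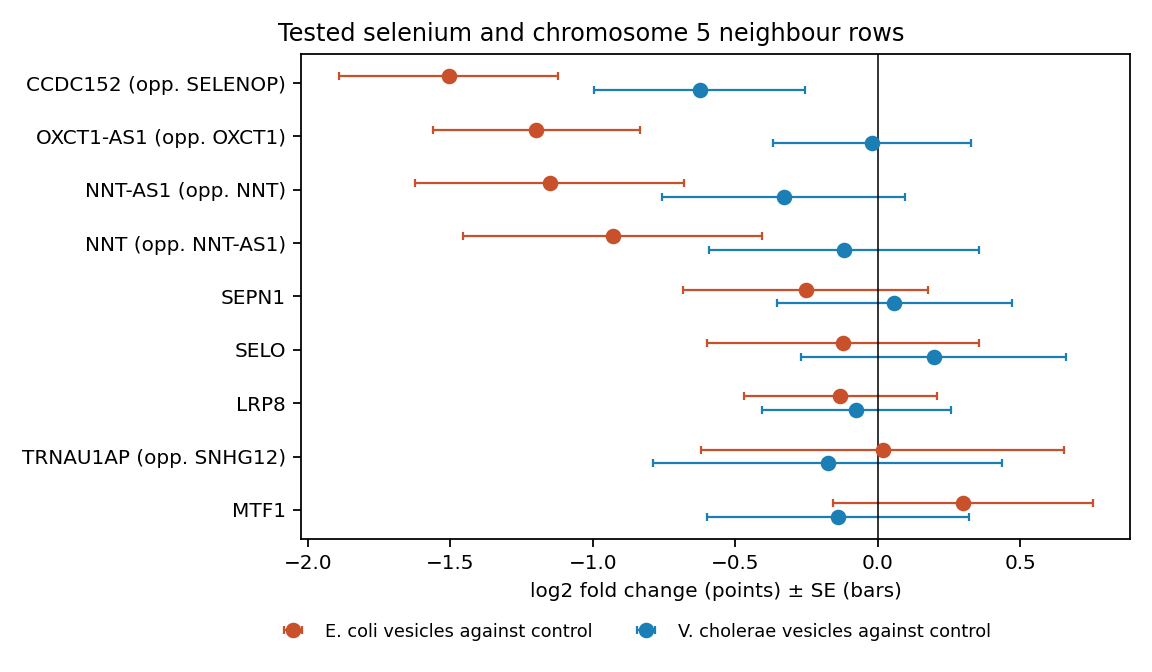
Log2 fold change (points) and SE (bars) of CCDC152 and of 8 other tested selenium and chromosome 5 neighbour rows, with E. coli (orange) and V. cholerae vesicles (blue) against control; opp. names the gene on the other strand. Opposite genes with clone-based names, such as AL020996.1 at SEPN1, are left out of these labels. Among these rows, CCDC152 at -1.51 and OXCT1-AS1 at -1.20 lie furthest to the left with E. coli vesicles, and the 5 selenium rows read by name lie between -0.25 and 0.30.

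Rows with a pattern like that of CCDC152 were ranked by the Pearson correlation of log2 CPM over the 9 libraries. These correlations are descriptions, since the libraries share the offset of replicate 3 and the position trend. The closest was POLR2I, of an RNA polymerase subunit and opposite the tubulin cofactor gene TBCB (r = 0.976, n = 9), which stood at 165 CPM in controls, 134 with V. cholerae and 97.2 with E. coli vesicles. LNX1, a ubiquitin ligase row opposite the polyadenylation factor gene FIP1L1, followed (r = 0.970), at 188, 151 and 87.1 CPM. PCNA-AS1 (0.968), PMCH (0.955), C3orf17 (0.948), SRCRB4D (0.942), C6orf201 (0.940) and HMGA1 (0.939) came next, and the 99th percentile of all rows was 0.889. The 8 rows were taken as the highest ranked, so they lie above that percentile by the way they were picked. In these 8 rows the log2 fold change with E. coli vesicles ran from -1.11 to -0.45, all nearer to 0 than the -1.51 of CCDC152.

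With the mean of each replicate number taken off, other rows came closest, and POLR2I was in both sets of 8 (r = 0.966). MED1, of the Mediator complex, led (r = 0.987), with TRIM44 (0.980) and the glucose transporter row SLC2A1 (0.970) after it. C10orf95 (0.968), LRRC37A (0.968), LOC643406 (0.966) and DNASE1L1 (0.964) made up the rest. The 99th percentile was 0.939, which the 8 rows again pass by the way they were picked. MED1 rested on 4 to 24 counts per library, TRIM44 on 5 to 25 and SLC2A1 on 6 to 49. Their log2 fold changes with E. coli vesicles, -1.45 ± 0.44, -1.50 ± 0.39 and -1.55 ± 0.38, were of the size of that of CCDC152, and those of the other 5 rows of this set ran from -0.98 for LRRC37A to -0.49 for LOC643406. With V. cholerae vesicles MED1, TRIM44 and SLC2A1 stood at -0.58, -0.52 and -0.83, beside -0.62 for CCDC152. The rows were picked for likeness to a row chosen for its low values with E. coli vesicles. Low values there thus come with the ranking, and the folds are a description. None of the 5 tested selenium rows was in either set. Each set took 8 of the 3679 rows tested, so no conclusion is drawn from this.

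**Figure D5:**
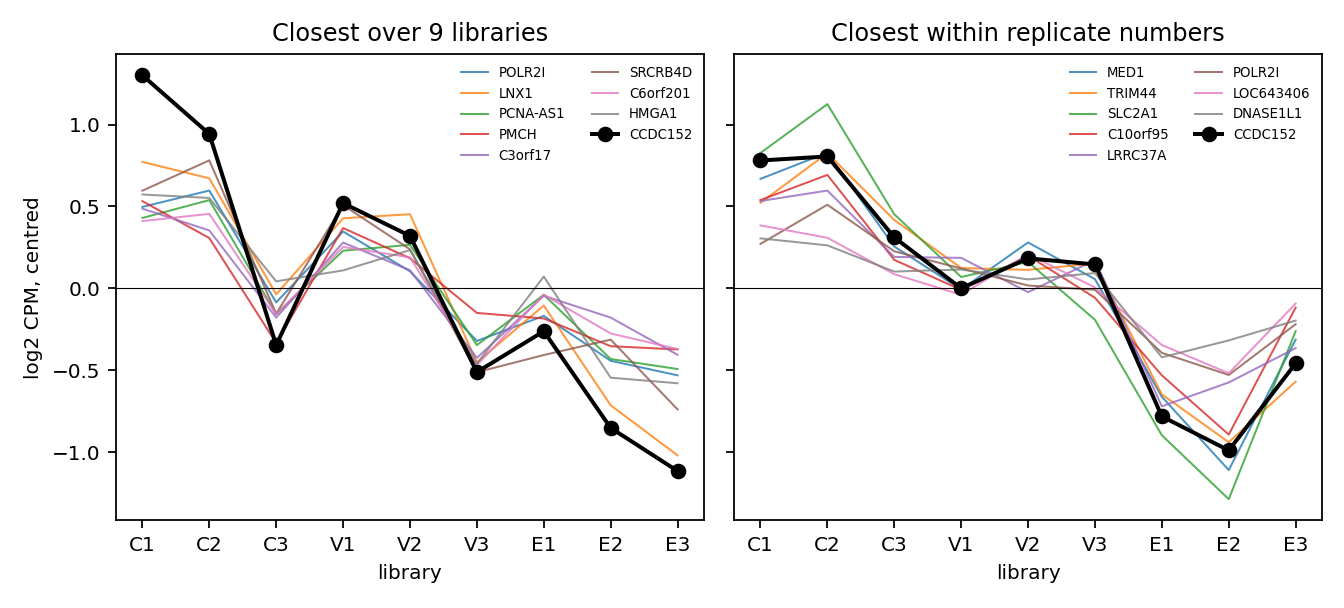
Centred log2 CPM of CCDC152 (black) and the 8 rows closest to it, over the 9 libraries (left, each row less its mean) and with the mean of each replicate number taken off (right); C, V and E stand for control, V. cholerae and E. coli vesicles, followed by the replicate number. On the left replicate 3 of the control and V. cholerae groups dips below replicates 1 and 2, and on the right the E. coli libraries are the lowest of each replicate number for every row shown. The rows were picked for likeness to CCDC152, itself chosen for low E. coli values, so this comes with the ranking.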

How the data were processed

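Counts per gene row for 9 libraries, made by the authors from TruSeq stranded mRNA libraries read for 50 bp at one end, were used as deposited. The submitters' processing notes name HTSeq 0.6.1, TopHat2 2.0.12, Cufflinks 2.2.1, Bowtie2 2.2.3, SAMtools 0.1.19, FastQC and build hg19. For strand setting, annotation and filters the sources used here give nothing. The member, the gene lists and the alternatives were chosen with earlier results of these data known.

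Rows were kept by filterByExpr (at least 10 counts, total at least 15), then scaled with TMM factors and tested in 1 fit of all libraries by group with the robust quasi-likelihood F-test of edgeR 4.0.16 (R 4.3.3). Calls were made at a Benjamini-Hochberg adjusted p under 0.05 over the 3679 rows kept. SE is the log2 fold change divided by the square root of F. Of all rows, 24125 were matched by name to GENCODE 29 (GRCh38) for strand, overlap and distance along the longest coding transcript. Log2 CPM for likeness had a prior count of 2, and the trend over distance was a lowess of span 0.3 per library. Rows named were CCDC152, SEPP1, called members or else the tested rows with most counts of each list, and the 8 rows closest in pattern by each measure. Rows and markers named besides those, such as untested rows at low counts, were chosen after their values were seen.

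Deviations from the group means correlated at 0.115 to 0.677 between same-numbered libraries (over the threshold of 0.1 in all 9 pairs), so fits with the replicate number as a block stand beside the results. Among replicates 1 and 2, pairs with equal numbers had 0.115 to 0.328 and pairs with unequal numbers 0.133 to 0.350, so the block mainly sets replicate 3 apart. V. cholerae replicates 1 and 2 differed by little more than sampling noise (chi-square per degree of freedom 1.05, where the other within-group pairs had 1.33 to 8.76). Both stayed in as separate libraries, and an alternative summed them. Other alternatives were RLE factors, library size alone, 2 other filters, no robust option, only the groups compared, DESeq2 1.42.0, limma 3.58.1 voom, replicates 1 and 2 only, the trend removed and leaving out each library. The trend removed with the block, and leaving out each library with the block, were added after the data were seen. Rows opposite other selenium genes, part of the planned tests, are not reported here. A test of CCDC152 between the vesicle groups was planned, but its values are given as a description, since the row was chosen on the same E. coli libraries.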

Additional observations from a re-analysis of the deposited data

How the results depend on the processing

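The log2 fold change of CCDC152 with E. coli vesicles, the contrast the row was chosen for, was below 0 under all 31 alternatives, from -1.86 to -1.15. It moved by less than the within-group SD of log2 CPM, 0.686. A fit without 1 library can hardly move it that far, so no conclusion is drawn from this. Leaving out 1 library gave -1.86 to -1.15 without the replicate block and -1.62 to -1.25 with it, and the block alone gave -1.42. With V. cholerae vesicles it was also below 0 under all 31, from -0.99 to -0.26. It passed the test in replicates 1 and 2 only (-0.71), where 61 of 3249 rows were called. It also passed with the block and without E. coli replicate 3 (-0.54, edgeR adjusted p = 0.0268), where 77 of 3883 rows were. The controls here are those of the contrast the row was chosen for, so these passes are not independent of that choice. Leaving out 1 library without the block gave -0.99 to -0.26, and with it -0.77 to -0.43. The difference between the vesicle groups was above 0 under all 31, from 0.66 to 1.17, with 0.96 in replicates 1 and 2 only and 1.08 with the block and without E. coli replicate 3. Leaving out 1 library gave 0.66 to 1.17 without the block and 0.71 to 1.08 with it.

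For E. coli against control and for V. cholerae against E. coli, the count of called neighbour rows was 0 with and without the block, and in replicates 1 and 2 only it became 2 and 1. Leaving out 1 library gave 0 to 2 and 0 to 1. The selenium rows kept a count of 0 in all alternatives run. The selenium rows have no fit with the position trend removed, since none of the 5 has a coding gene opposite. Over all rows, the E. coli comparison called 7 rows, 84 with the block, 35 with DESeq2, 40 with no filter, 793 in replicates 1 and 2 only and 236 without E. coli replicate 3. The V. cholerae comparison called 2, 13 with the block, 4 with DESeq2, 0 with limma voom, 5 with no filter and 61 in replicates 1 and 2 only. The direct comparison called 0, 2 with the block, 5 with DESeq2, 31 with no filter, 766 in replicates 1 and 2 only and 204 without E. coli replicate 3. Under the replicate block with that library left out, the 3 comparisons called 817, 77 and 747. The cause of these shifts was not tested. The SEPP1 row and most selenium rows had too few counts per library for a test, and the part of depth or of the counted strand in this was not tested.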
